A study of Mus musculus with 7 samples.

Results

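MicroRNA gene loci are described here across mouse livers in which Dicer1 was deleted. The members are all probe sets of the deposited expression table whose single platform gene symbol is that of a microRNA gene, meaning Mir followed by a digit, or Mirlet. They are 174 probe sets for 171 genes, of 21093 probe sets for 16819 genes in all. Of these, 167 carry the symbol of a microRNA itself and 7 that of a host RNA named after one, namely Mir17hg, Mir670hg, Mir100hg and the 4 probe sets of Mir99ahg. A further 19 probe sets join a microRNA symbol with other symbols and are not members.

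Whole liver RNA was hybridised to 7 Affymetrix mouse gene arrays, 1 per liver. Male Dicer1 fl/fl mice of mixed 129S4 and C57BL/6 background received AAV8-Ttr-Cre at 8 to 10 weeks of age. This adeno-associated virus carries Cre recombinase under the transthyretin promoter, which is active in hepatocytes. Livers were taken 2 weeks after the virus (2 arrays) and 4 weeks after it (2 arrays), against livers at 0 weeks, labelled control (3 arrays). Every group, the controls included, carries both floxed Dicer1 alleles and was fasted for 4 hours. Virus, Cre, time since injection and loss of Dicer1 differ together between the groups, so their shares cannot be told apart. Other liver cells keep their Dicer1, and in bulk RNA fewer cells of a type and less RNA per cell cannot be told apart.

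A microRNA gene is first copied into a long primary transcript, often shared by neighbouring microRNAs or by a protein-coding host gene. Drosha and its partner Dgcr8 cut a hairpin out of that transcript in the nucleus, and Dicer cuts the hairpin into the short mature strands in the cytoplasm. A mature microRNA recognises messenger RNAs mainly through its seed, bases 2 to 8. The array's probes were designed against the annotated gene, and the labelling favours long RNA, so a member's value reads precursor or host transcript and not mature microRNA. In adult liver miR-122 is the most abundant mature microRNA and is known for its role in lipid metabolism.

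The sequences shown first are those of the loci called in at least 1 comparison, since the results turn on them, and of a pair from the Dlk1-Dio3 domain. All are from RefSeq on GRCm38.p6. In the precursor hairpins of Mir107, at chr19:34820687-34820773 on the minus strand, and of Mir103-2, at chr2:131288052-131288137 on the plus strand, the capitals mark the mature strands.
Mir107 hairpin: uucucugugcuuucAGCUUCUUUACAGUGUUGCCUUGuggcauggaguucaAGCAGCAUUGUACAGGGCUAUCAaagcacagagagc
Mir103-2 hairpin: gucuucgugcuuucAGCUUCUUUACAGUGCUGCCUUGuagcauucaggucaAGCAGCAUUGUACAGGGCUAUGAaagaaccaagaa

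In the mature strands below the capitals mark the seed. The first pair share the seed GCAGCAU.
miR-107-3p: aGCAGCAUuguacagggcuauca
miR-103-3p: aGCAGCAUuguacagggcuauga
miR-130b-3p: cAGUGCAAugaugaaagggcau
miR-431-5p: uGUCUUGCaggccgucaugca
miR-219a-5p: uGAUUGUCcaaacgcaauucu
miR-692: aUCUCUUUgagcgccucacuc
miR-382-5p: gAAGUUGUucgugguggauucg
miR-300-3p: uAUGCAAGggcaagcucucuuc

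The hairpins of Mir107 and Mir103-2 are identical at 73 of 87 aligned bases (83.9%). Their 3p mature strands differ by C22G and their 5p mature strands by U16C, with the Mir107 base first and positions counted from 1 at the 5′ end. The probes of 2 such similar loci could in part read the same RNA, which was not tested. The other hairpins lie at chr16:17124061-17124142 (minus) for Mir130b, chr12:109590447-109590537 (plus) for Mir431, chr17:34024983-34025092 (minus) for Mir219a-1 and chr17:6895229-6895337 (minus) for Mir692-1. Mir382 lies at chr12:109733771-109733846 and Mir300 at chr12:109724313-109724391, both on the plus strand.

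Values are log2 signal, and a log2 difference of 1 is a 2-fold difference in signal. The median log2 signal of the 7 arrays lay between 7.07 and 7.09. The mean of a member over the arrays ran from 4.39 to 10.95. Levels of different probe sets are not compared, since each depends on its own probes. In 98 members (56.3%) at least 3 arrays held exactly the same deposited value, before any rounding, against 39.2% of all probe sets. Mir219a-2 read 5.85 on all 7 arrays. On the first principal component over all probe sets the arrays after Cre lay between 6.6 and 26.8 and the controls between -26.6 and -24.7, with replicate 1 at 2 weeks the nearest to the controls. The 7 measured hepatocyte markers averaged 13.92 to 13.98 at 2 weeks and 13.98 at 4 weeks, against 14.06 to 14.11 in controls. Of them only Tat, tyrosine aminotransferase, passed the test after Cre (log2 difference -0.62, adjusted p = 0.0365).

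Dicer1 read 8.03 and 7.79 at 2 weeks and 7.97 and 8.05 at 4 weeks, against 8.73, 8.71 and 8.58 in controls. Every liver after Cre lay below every control, by 0.71 on average (SE 0.07, limma adjusted p = 0.00724). The labels do not say where its probes lie relative to the floxed exons. Of 24 measured genes of microRNA processing and silencing, 6 rose and 1, Dicer1, fell after Cre, where 11.2% of all probe sets were called. The largest rise was that of Tnrc6a, a scaffold of the silencing complex, at 1.15 (adjusted p = 0.00141). Drosha, which cuts the primary transcripts, rose by 0.71 (SE 0.13, adjusted p = 0.0299). At 2 weeks 3 of the 24 rose and 1 fell, where 4.69% of all probe sets were called, and at 4 weeks 4 rose and 1 fell, where 8.21% were called. The 7 genes called after Cre were 4 without any 1 control or without replicate 2 at 4 weeks.

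Few microRNA loci were called after Cre. A call means an adjusted p under 0.05 in limma's moderated test, adjusted by Benjamini-Hochberg over all 21093 probe sets. At 2 weeks against control 3 members were called (1.72%), where 4.69% of all probe sets were called. Of these members 2 were higher, as were 2.8% of all probe sets, and 1 was lower, as were 1.9%. At 4 weeks against control 2 members were called (1.15%), both higher, where 8.21% of all probe sets were called, 4.34% higher and 3.87% lower. Over both times together, against control, 4 members were called (2.3%), where 11.2% of all probe sets were called. Of these members 3 were higher, as were 5.97% of all probe sets, and 1 was lower, as were 5.21%. Between 4 and 2 weeks no member was called, where 0.00474% of all probe sets were, and 11 members had an unadjusted p under 0.05, where 7.69% of all probe sets did. Of the 11 members 6 were higher at 4 weeks, as were 4.26% of all probe sets, and 5 lower, as were 3.43%. The members thus held a smaller share of calls than the table as a whole in each comparison with control. The counts rested on single arrays, for the members as for the whole table. Without replicate 1 at 2 weeks 13 members were called at 2 weeks, 7 at 4 weeks and 10 over both. Over all probe sets that setting gave 2268, 2028 and 2934 calls, where all arrays gave 990, 1732 and 2358. At 2 weeks the count was 1 without control replicate 2, and 0 without control replicate 3, replicate 2 at 2 weeks or either array at 4 weeks. At 4 weeks it was 7 without replicate 2 at 2 weeks, 1 without control replicate 1 or 2, and 0 without control replicate 3 or either array at 4 weeks. Over both times it was 2 without replicate 2 at 2 weeks, 1 without replicate 1 at 4 weeks, and 0 without replicate 2 at 4 weeks or control replicate 3. With any other single array left out the whole table held 38 to 226 calls at 2 weeks and 548 to 1726 over both. At 4 weeks it held 3 to 481 calls without a control or a 4-week array, and 2028 without replicate 2 at 2 weeks. The frequent equal values go with the small share of calls, and their part in it was not tested.

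The same order held without the adjustment. Unadjusted p lay under 0.05 for 14 members at 2 weeks, where 21.5% of all probe sets did so. Of these members 8 were higher (4.6% of the members), as were 11% of all probe sets. At 4 weeks it lay under 0.05 for 26 members, where 23.3% of all probe sets did so. Of these members 19 were higher (10.9% of the members), as were 12.2% of all probe sets. The arrays of the compared groups did not overlap for 30 members at 2 weeks, where 33.1% of all probe sets did not. Of these members 19 were higher, as were 16.4% of all probe sets, and 11 lower, as were 16.7%. At 4 weeks the groups did not overlap for 45 members, where 37.9% of all probe sets did not. Of these members 34 were higher, as were 20.6% of all probe sets, and 11 lower, as were 17.3%. The median log2 difference of the members was 0.02 at 2 weeks and 0.03 at 4 weeks, beside -0.00 and 0.01 for all probe sets.

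Mir107 and Mir103-2 were the members with the smallest adjusted p after Cre. Their mature products belong to the miR-103/107 family, which is known in mouse liver for a role in insulin sensitivity and has been reported to target Dicer in human cells. Mir107 read 6.44 and 6.28 at 2 weeks and 6.08 and 6.00 at 4 weeks, against 5.56, 5.82 and 5.39 in controls. All 4 livers after Cre were above all controls, and both livers at 2 weeks were above both at 4 weeks. The log2 difference was 0.77 at 2 weeks (SE 0.13, adjusted p = 0.04), 0.45 at 4 weeks (adjusted p = 0.108) and 0.61 over both (SE 0.11, adjusted p = 0.027), which is 1.53-fold.

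Mir103-2 read 5.63 and 5.50 at 2 weeks and 5.16 and 5.16 at 4 weeks, against 5.14, 4.94 and 4.94 in controls. The livers at 2 weeks stood apart, and those at 4 weeks lay just above the highest control. The log2 difference was 0.56 at 2 weeks (SE 0.08, adjusted p = 0.0273), 0.15 at 4 weeks (adjusted p = 0.347) and 0.35 over both (SE 0.07, adjusted p = 0.0303). The difference of 4 from 2 weeks was -0.41 for Mir103-2 (adjusted p = 0.415) and -0.32 for Mir107 (adjusted p = 0.698), and neither passed the test.

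Both loci lie in introns of pantothenate kinase genes, which make the enzyme of the first step of coenzyme A synthesis. Neither host row was called. Pank1, host of Mir107, read 12.07 and 11.88 at 2 weeks and 12.05 and 12.02 at 4 weeks, against 12.17, 12.15 and 12.20 in controls (log2 difference over both times -0.17, adjusted p = 0.121). Pank2, host of Mir103-2, differed by -0.05 (adjusted p = 0.527). Leaving out replicate 1 or 2 at either time, or control replicate 3, ended the calls of Mir107 and of Mir103-2. Control replicate 1 did so for Mir107 and control replicate 2 for Mir103-2 and for Mir107 at 2 weeks. The differences themselves stayed between 0.51 and 0.73 for Mir107 and between 0.29 and 0.42 for Mir103-2 over both times.

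Mir130b, whose mature strand shares its seed with the miR-301 family, was higher by a small and even amount. It read 6.00 and 5.94 at 2 weeks and 5.89 and 6.06 at 4 weeks, against 5.75, 5.70 and 5.73 in controls. No liver after Cre overlapped a control, and the difference over both times was 0.24 (SE 0.05, adjusted p = 0.0399). Its cluster neighbour Mir301b, in the same host transcript 2610318N02Rik, read 5.88 and 5.89 at 2 weeks and 5.89 and 6.13 at 4 weeks, against 5.90, 5.89 and 5.63 in controls. There the groups overlapped and the difference was 0.14 (adjusted p = 0.427).

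Mir692-1 was the only member called lower over both times. It read 11 and 10.55 at 2 weeks and 10.58 and 10.79 at 4 weeks, against 11.21, 11.30 and 11.23 in controls. All livers after Cre lay below all controls, by 0.52 on average (log2 difference -0.52, SE 0.12, adjusted p = 0.049). The calls of Mir130b and Mir692-1 ended without any 1 of the control arrays. That of Mir130b also ended without either array at 2 weeks or replicate 2 at 4 weeks, and that of Mir692-1 without either array at 4 weeks.

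Mir219a-1, whose mature strand is known from the brain and from myelin-forming cells, moved in opposite directions. It read 7.14 and 7.07 at 2 weeks and 7.55 and 7.63 at 4 weeks, against 7.38 in each control. The difference was -0.27 at 2 weeks (SE 0.04, adjusted p = 0.0356) and 0.21 at 4 weeks (SE 0.04, adjusted p = 0.047). Of all probe sets 0.887% lay on opposite sides of the controls in this way. The test of 4 against 2 weeks itself gave 0.49 (SE 0.05), with an adjusted p of 0.269 that did not pass. With the 3 control values equal, the spread of that group is 0 to the deposited precision. The 2-week call ended without any 1 control, replicate 2 at 2 weeks or either array at 4 weeks, and the 4-week call without any 1 control or either array at 4 weeks, and under all 3 other scalings of the arrays.

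**Figure D1:**
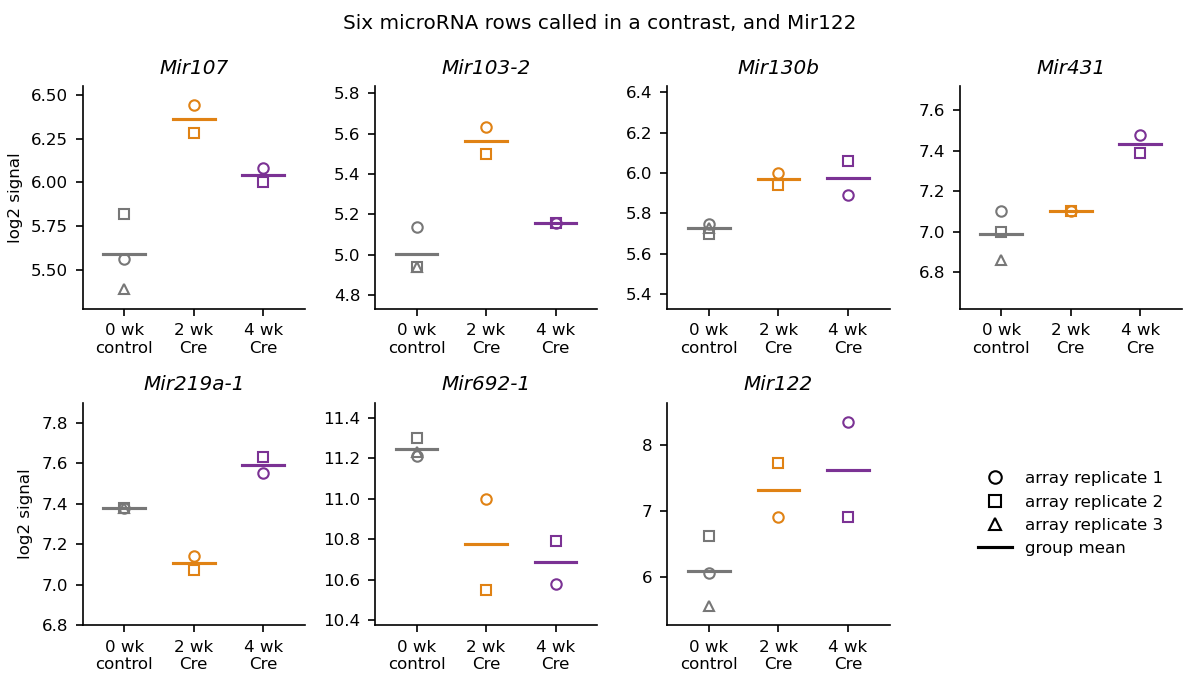
Log2 signal (vertical axis, with its own range in each panel) of the 6 members called in a comparison and of Mir122, by weeks after Cre, with 0 weeks the controls. Symbols are single arrays and bars group means. Mir107 peaks at 2 weeks, Mir431 stands apart at 4 weeks, and Mir122 has the widest scatter.

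Among the members, the largest differences belonged to microRNAs of the Dlk1-Dio3 domain and to Mir122. None of those at or above 2-fold passed the test. The Dlk1-Dio3 domain on chromosome 12 is an imprinted region. From the maternal copy it makes the long RNAs Meg3, Rian and Mirg, in and around which one of the largest microRNA clusters of the mouse genome lies. These RNAs are abundant in the embryo and low in adult liver. The members hold 24 loci of it. The cluster rule, neighbouring starts within 10 kb on 1 strand, was applied to loci with a hairpin sequence. It puts 15 of them into a cluster of 36 RefSeq loci and 6 into an upstream cluster of 14 loci. Mir341 and Mir370 lie in Rian. Mir666, between Mir679 and Mir667 of the larger cluster, had no hairpin sequence at hand and was not placed.

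Of the 24, the log2 difference was above 0 for 19 at 2 weeks and for 23 at 4 weeks, where 47.7% and 52.1% of all probe sets were above 0. Their median difference was 0.11 at 2 weeks and 0.27 at 4 weeks. For the other 150 members the medians were 0.00 and 0.01. Loci of 1 cluster share a primary transcript, so the 24 are not independent. None of them was called at 2 weeks or over both times, and 1, Mir431, was called at 4 weeks.

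Mir431 lies in the upstream cluster, on the strand opposite to the retrotransposon-derived gene Rtl1. It read 7.1 on both arrays at 2 weeks and 7.48 and 7.39 at 4 weeks, against 7.1, 7 and 6.86 in controls. Both livers at 4 weeks stood above all other livers, and those at 2 weeks equalled the highest control. The difference was 0.45 at 4 weeks (SE 0.08, adjusted p = 0.0304) and 0.11 at 2 weeks (adjusted p = 0.463). Leaving out any 1 array other than control replicate 1 ended the call, with the difference between 0.39 and 0.51 over all alternatives.

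Mir382 showed the largest fitted differences of all members and also wide scatter. It read 4.25 and 6.74 at 2 weeks and 5.90 and 6.78 at 4 weeks, against 4.01, 4.24 and 4.05 in controls. Replicate 1 at 2 weeks lay just above the highest control, and the other 3 livers after Cre lay well above. The difference was 1.4 at 2 weeks (adjusted p = 0.339), 2.24 at 4 weeks (adjusted p = 0.129) and 1.82 over both (SE 0.60, adjusted p = 0.124).

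Mir300 had the same order of arrays, with 4.44 and 5.90 at 2 weeks and 5.27 and 6.25 at 4 weeks, against 3.87, 3.79 and 3.73 in controls. Its difference over both times was 1.67 (SE 0.40, adjusted p = 0.055). Mir380 read 4.14 and 5.36 at 2 weeks and 4.50 and 5.65 at 4 weeks, against 3.82, 3.59 and 3.66 in controls, a difference of 1.22 (adjusted p = 0.112). In each of these, replicate 1 was the lower array at both times.

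Mir377, which lies in Mirg, read 4.22 and 6.11 at 2 weeks and 4.79 and 6.21 at 4 weeks, against 4.34, 4.07 and 3.62 in controls. Here replicate 1 at 2 weeks lay within the controls, and the difference over both times was 1.33 (SE 0.56, adjusted p = 0.213). Mir679 read 7.01 and 7.58 at 2 weeks and 7.57 and 8.19 at 4 weeks, against 6.62, 6.49 and 6.95 in controls. All its livers after Cre were above all controls, and the difference was 0.90 (SE 0.22, adjusted p = 0.0592). Mir329 differed by 0.58 over both times (adjusted p = 0.164).

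The 4 loci at or above 2-fold over both times, Mir382, Mir300, Mir377 and Mir380, read between 3.59 and 4.34 on the control arrays. That is close to the lowest value of any probe set on those arrays, 3.28 to 3.47, where a signal has little room to be lower. The size and rank of these differences are therefore uncertain, and they may be lower bounds. The other 20 had control means from 4.64 to 9.50 and differences from -0.12 to 0.90. All 4 livers after Cre lay above all controls for 5 of the 24, namely Mir382, Mir300, Mir380, Mir679 and Mir540, and for 11.9% of all probe sets. In all, the groups did not overlap over both times together for 18 members, 13 higher and 5 lower. They did not overlap for 23% of all probe sets, 11.9% higher and 11.1% lower.

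The livers after Cre differed among themselves along the whole domain. The median of the 24 loci, each taken minus its control mean, was 0.00 in replicate 1 and 0.26 in replicate 2 at 2 weeks. At 4 weeks it was 0.19 in replicate 1 and 0.39 in replicate 2, against -0.04 to 0.05 in the single controls. Replicate 2 exceeded replicate 1 at 20 of the 24 loci at 2 weeks and at 23 of 24 at 4 weeks. Replicate 1 at 2 weeks is also the liver nearest to the controls over all probe sets. Without it the differences over both times were 2.44 for Mir382 and 2.04 for Mir300. It was the lowest liver after Cre at both loci, so leaving it out raises these differences by itself, and only 1 array remains at 2 weeks.

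**Figure D2:**
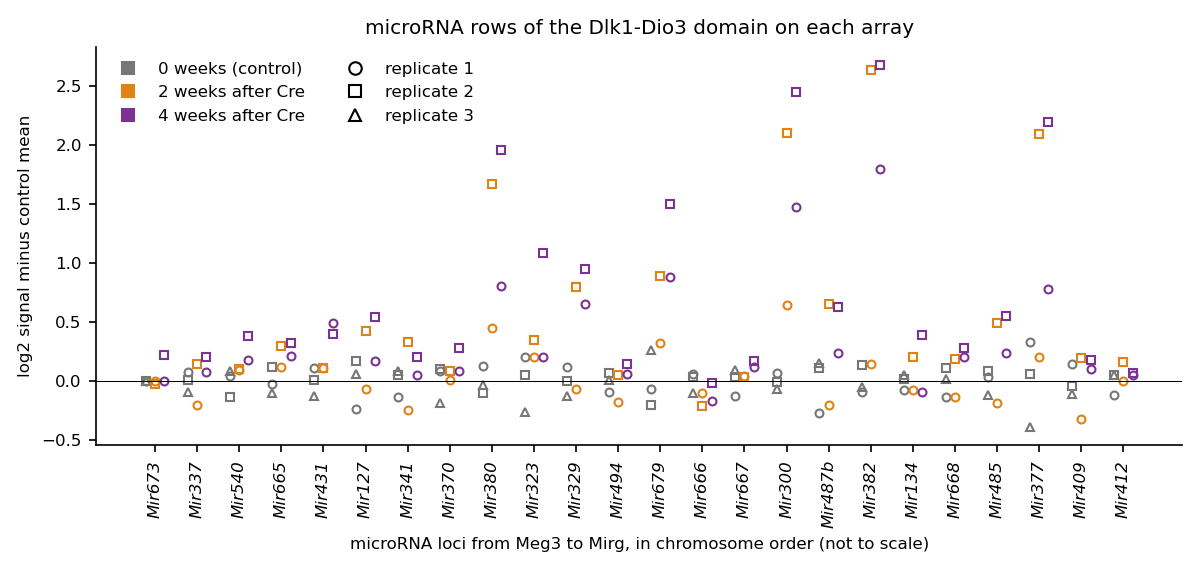
Log2 signal minus the control mean (vertical axis) of the 24 Dlk1-Dio3 microRNA loci in chromosome order (horizontal axis, not to scale), 1 symbol per array. Replicate 2 stands highest at most loci at both times, and Mir300, Mir382, Mir377 and Mir380 reach the largest differences.

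Of the long RNAs of the domain, which are not members, Rian and Meg3 had a row of their own and Mirg had none. In Rian and Meg3 replicate 2 was also the higher array at both times. Rian read 5.55 and 7.60 at 2 weeks and 7.03 and 8.24 at 4 weeks, against 4.75, 4.36 and 4.12 in controls. It was called over both times at 2.69 (SE 0.56, adjusted p = 0.0369). That call ended without any 1 control, replicate 2 at 2 weeks or either array at 4 weeks. At 4 weeks Rian was called at 3.22 (SE 0.67, limma adjusted p = 0.0455). The 4-week call ended without any 1 control or either array at 4 weeks. At 2 weeks the Rian difference was 2.16 (limma adjusted p = 0.136). Meg3 read 8.71 and 11.74 at 2 weeks and 9.96 and 11.33 at 4 weeks, against 8.05, 7.73 and 7.69 in controls, a difference of 2.61 (adjusted p = 0.0905). Over both times the flanking genes Dlk1 and Dio3 differed by 0.05 and -0.01 (adjusted p = 0.769 and 0.945), and Rtl1 by 0.07 (adjusted p = 0.423). Dlk1 differed by -0.12 at 2 weeks and 0.22 at 4 weeks (adjusted p = 0.585 and 0.304). Its 4-week livers lay above all controls, as for 20.6% of all probe sets. Dio3 differed by -0.09 and 0.08 (adjusted p = 0.422 and 0.493). Its 2-week livers lay below all controls, as for 16.7% of all probe sets. The 2 microRNA loci in Rian had smaller differences than Rian over both times, Mir341 by 0.09 and Mir370 by 0.12.

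**Figure D3:**
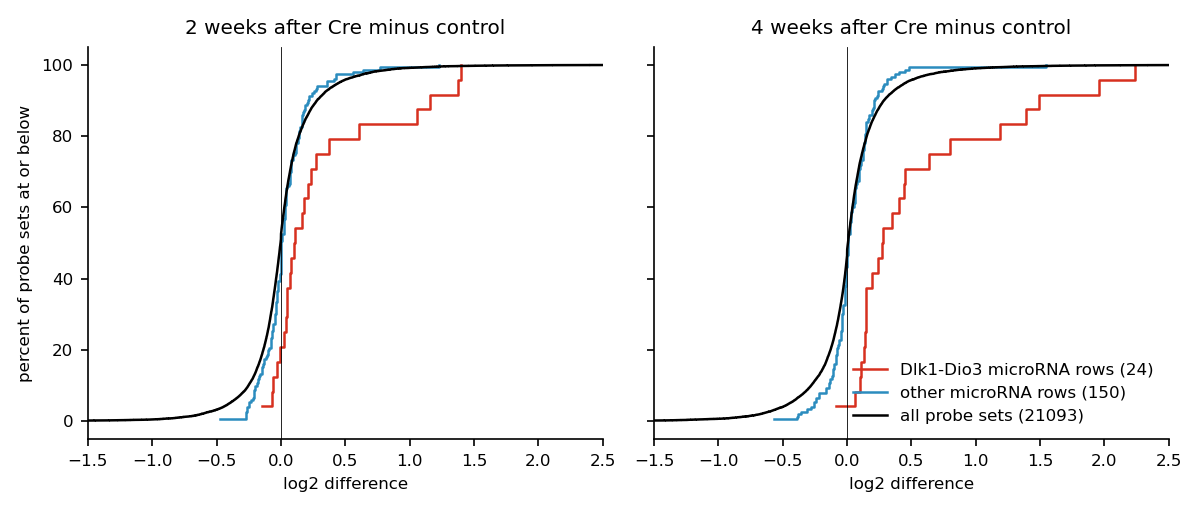
Percent of probe sets (vertical axis) at or below each log2 difference (horizontal axis, from -1.5 to 2.5), for the 24 Dlk1-Dio3 microRNA rows, the other 150 members and all 21093 probe sets. The Dlk1-Dio3 curve lies to the right of both others at 4 weeks, with its median at 0.27, and the other members have their median at 0.01.

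Mir122 read 6.90 and 7.72 at 2 weeks and 8.35 and 6.90 at 4 weeks, against 6.06, 6.62 and 5.56 in controls. All 4 livers after Cre were above all controls, yet the 2 livers at 4 weeks stood further apart than the controls did among themselves. The difference was 1.23 at 2 weeks (adjusted p = 0.264), 1.55 at 4 weeks (adjusted p = 0.154) and 1.39 over both (SE 0.45, adjusted p = 0.117). It did not pass the test.

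Other loci of microRNAs known in liver gave smaller values. Mir192 read 5.65 and 5.52 at 2 weeks and 5.61 and 5.45 at 4 weeks, against 5.68, 5.81 and 5.89 in controls. All its livers after Cre were below all controls, with a difference of -0.23 (adjusted p = 0.11). Its cluster neighbour Mir194-2 differed by 0.00 (SE 0.08), and Mir194-1, on chromosome 1, by -0.08 (adjusted p = 0.643). Mir101b differed by 0.34 (SE 0.10, adjusted p = 0.105), and its host Rcl1, a gene of ribosomal RNA processing, by -0.01 (adjusted p = 0.9).

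Mir378a, in the gene of the metabolic coactivator Ppargc1b, differed by 0.09 (adjusted p = 0.523). Loci of microRNAs known mainly from other cells were not called either. Mir142, of blood cells, differed by 0.17 (adjusted p = 0.466). Mir143 and Mir145a, of smooth muscle, differed by 0.15 (adjusted p = 0.216) and 0.12 (adjusted p = 0.646). Mir17, of the growth-promoting Mir17-92 cluster, differed by 0.07 (adjusted p = 0.715), and its host RNA Mir17hg by -0.12 (adjusted p = 0.55). The 4 probe sets of Mir99ahg gave -0.13, 0.13, 0.15 and 0.16, none called.

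The let-7 family restrains growth genes, and its mature strands share the seed GAGGUAG, as in these 2 members.
let-7g-5p: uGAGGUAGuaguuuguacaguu
let-7c-5p: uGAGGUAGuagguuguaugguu

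The 8 members with this seed, 7 Mirlet7 loci and Mir98, differed by -0.19 to 0.17 over both times. Of them 4 lay above 0 and none was called. Mirlet7c-1 had the largest difference at 2 weeks (0.36, adjusted p = 0.306), and at 4 weeks it differed by -0.02. Mirlet7f-1 was lowest over both times (-0.19, adjusted p = 0.263). It read 5.16 and 5.46 at 2 weeks and 5.42 and 5.44 at 4 weeks, against 5.69, 5.50 and 5.49 in controls, so that every liver after Cre lay below every control.

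The other families with at least 4 members sharing a seed are described next. The 4 loci of the Mir30 family with the seed GUAAACA differed by -0.13 to 0.13, and Mir30d, for which no hairpin was at hand, by 0.14 (adjusted p = 0.268). The 4 Mir15 and Mir16 relatives with AGCAGCA differed by 0.01 to 0.36, and the 4 Mir181 loci with ACAUUCA by -0.03 to 0.16. No member of these families was called over both times.

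Of the clusters outside chromosome 12, formed from loci with a hairpin sequence, those with at least 3 member rows are described, whatever their values. Mir99b, close to Mirlet7e and Mir125a on chromosome 17, had no hairpin sequence at hand and was not placed in a cluster. The 5 loci of the Mir500 cluster in Clcn5 on the X chromosome differed by -0.09 to 0.10 over both times. The 3 of the Mir23a cluster differed by 0.04 to 0.10, and the 3 of the Mir25 cluster, in the replication gene Mcm7, by -0.02 to 0.14. The 3 let-7 loci of chromosome 13 differed by -0.19 to 0.07. Clusters with 2 such rows reached up to 0.35, above the highest value of the upstream Dlk1-Dio3 cluster, 0.28. That was the pair Mir221 and Mir222, named after their values were seen (-0.01 to 0.35). Mir15a, beside Mir16-1 on chromosome 14, had no hairpin sequence at hand, so these 2 were not counted as a cluster. The relatives with AGCAGCA, which include both, reached 0.36.

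The remaining extreme members were small and uncalled. Mir505 was higher by 0.47 over both times (adjusted p = 0.0735), with 8.64 and 8.54 at 2 weeks and 8.26 and 8.26 at 4 weeks, against 7.80, 8.26 and 7.80 in controls. Its 4-week livers equalled the highest control. The lowest differences over both times after Mir692-1 were those of Mir6516 (-0.28, adjusted p = 0.139) and Mir129-2 (-0.28, adjusted p = 0.0831). Mir135a-1 differed by -0.27 (adjusted p = 0.428) and Mir146b, a microRNA of the inflammatory response, by -0.26 (adjusted p = 0.248). Mir320, whose hairpin is known to be made without Drosha, differed by -0.10 at 2 weeks and -0.36 at 4 weeks (adjusted p = 0.554 and 0.0675). At 2 weeks Mir212 was among the lowest (-0.27, adjusted p = 0.216). Between 4 and 2 weeks the 5 lowest values, Mir103-2 included, held -0.38 for Mirlet7c-1, -0.38 for Mir542, -0.35 for Mir16-1 and -0.33 for Mir505. The 5 highest held 0.58 for Mir679, 0.58 for Mir300 and 0.44 for Mir329 beside Mir382 (0.84) and Mir219a-1.

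MicroRNA rows and the rows of the genes around them were set side by side. RefSeq positions on the same strand, or for some loci a hand-written list of known hosts, place 71 members inside another gene. The host had a row of its own for 50, in 38 host genes. Over both times 29 of the 50 pairs had the same sign. Pearson's r across the 50 pairs was 0.06, and -0.04 at 2 weeks and 0.18 at 4 weeks. The pairs share arrays, and some share a host, so r is a description. In 5 pairs the host was called over both times, and in none of these was the microRNA row called.

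Copz2, a subunit of the coat of Golgi transport vesicles, differed by -0.51 (adjusted p = 0.00287), and Mir152 within it by -0.05. Tango2, known for a human metabolic disease, differed by -0.85 (adjusted p = 0.00641), and Mir185 within it by -0.03. Wdr82, part of a histone methyltransferase complex, differed by 0.68 (adjusted p = 0.0117), and Mirlet7g by -0.04. Wdr82 read 10.29 and 10.64 at 2 weeks and 10.50 and 10.46 at 4 weeks, against 9.85, 9.78 and 9.75 in controls. Mirlet7g read 5.41 and 5.46 at 2 weeks and 5.46 and 5.42 at 4 weeks, against 5.46, 5.46 and 5.51 in controls. The calls of Copz2 and Tango2 over both times held without each array in turn, and that of Wdr82 ended without control replicate 2 or 3 or without either array at 4 weeks.

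Mir483 lies in Igf2, a fetal growth factor gene. Igf2 read 6.69 and 10.65 at 2 weeks and 7.65 and 9.36 at 4 weeks, against 6.69, 6.68 and 6.76 in controls (difference 1.88, SE 0.97, adjusted p = 0.304). Mir483 read 8.07 and 8.11 at 2 weeks and 8.11 and 8.00 at 4 weeks, against 8.11, 8.11 and 8.23 in controls, a difference of -0.08 (adjusted p = 0.426). The Igf2 signal was highest in replicate 2 at both times, as in the Dlk1-Dio3 domain, and the Mir483 signal was highest in control replicate 3.

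**Figure D4:**
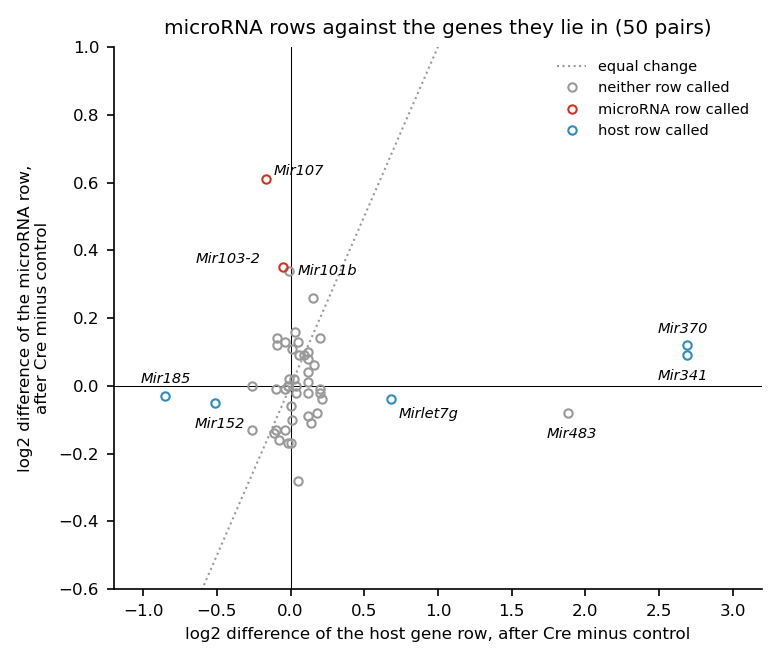
Log2 difference over both times, after Cre minus control, of the microRNA row (vertical axis) against that of its host gene's row (horizontal axis, wider scale) for 50 pairs. The dotted line marks equal change. Pairs with a called host lie near 0 on the vertical axis, and Mir107 and Mir103-2 are higher while their hosts are not.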

How the data were processed

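Per the submitters' processing notes, GCOS 1.4 was used. The deposited table holds log2 values of 21093 probe sets on 7 arrays, and the sources used here do not say how the authors normalized them. The values were used as deposited, and the number of arrays limits the precision. Probe sets were named from the platform annotation: 17709 had 1 symbol, 187 several and 3197 none. All 174 members matched the RefSeq table (GRCm38.p6). Of them 142 had a hairpin sequence, and only these were given a strand, a cluster and a host by position. Some hosts came from a hand-written list.

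limma 3.58.1 in R 4.3.3 fitted all probe sets with 3 group means (lmFit, eBayes, two-sided). Benjamini-Hochberg adjustment ran over all 21093 and the threshold was 0.05. "Over both times" or "after Cre" is the mean of the 2-week and 4-week groups minus control. The comparisons share the 3 control arrays. Files and labels gave no scan batch. The code was tested on simulated data.

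The members and lists were chosen with earlier results of these data known. Named were all called members, the 5 largest and 5 smallest differences of each comparison, microRNAs known in liver, and their hosts and cluster neighbours. Likeness between probe sets is not reported, since the 7 arrays share groups. Labels call the samples biological replicates. Alternatives were other scalings, filters, variance models, thresholds, a replicate block and leaving out each array.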

Additional observations from a re-analysis of the deposited data

Results flagged for a closer look

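Mir219a-1 lay on opposite sides of the controls at the 2 times. Both livers at 2 weeks were below all controls (log2 difference -0.27) and both at 4 weeks were above them (0.21). The difference of 4 weeks from 2 weeks was 0.49, with limma adjusted p = 0.269 over all probe sets (unadjusted p = 8.3e-05). Of all probe sets, 0.887% lay on opposite sides in this way.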

How the results depend on the processing

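Among the single probe sets followed, none that was called in the main fit or an alternative changed sign between them. Sign changes of uncalled values were not counted. The members called at 4 weeks, 2 higher in the main fit, were 3 higher and 4 lower after centring arrays on the members' median. The number of members called at 2 weeks (3) was 0 with only the arrays of the compared groups (221 calls in the whole table), 6 at an adjusted p under 0.1, 14 at an unadjusted p under 0.05, and between 0 and 13 when 1 array was left out. At 4 weeks (2) it was 7 after centring arrays on the members' median (2112 calls in the whole table), 5 of 102 without dim probe sets (2155 of 16257) and 5 of 171 with 1 row per gene (1643 of 16819). It was 7 with only the compared arrays (2028), 12 at 0.1, 26 unadjusted, and 0 to 7 with 1 array left out. For 4 against 2 weeks (0) it was 11 unadjusted, and 0 with any array left out. After Cre (4) it was 7 after centring on array medians (2502), 12 at 0.1, 24 unadjusted, and 0 to 10 with 1 array left out, where 10 came without replicate 1 at 2 weeks, as did the 13. The 7 called genes of the processing list were 4 to 10 with 1 array left out, and the Dicer1 difference lay between -0.77 and -0.65. Arms left with 1 array were assumed to vary like the other groups. At an adjusted p under 0.1 the whole table held 2257 calls at 2 weeks, 3001 at 4 weeks and 3633 after Cre. At an unadjusted p under 0.05 it held 4536, 4907 and 5399, and 1622 for 4 against 2 weeks. The cause of the changes in these counts was not tested. Of 2153 alternative values of single probe sets, 125 lost their call, 59 gained one and 69 uncalled ones moved beyond the spread.

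Replicate numbers were shared by the groups. Over all probe sets deviations of same-numbered arrays correlated between -0.062 and 0.121, and the arrays were not taken as pairs. With 2 arrays in a group the deviations mirror each other, so these correlations are a description. With the replicate number as a block, the whole table held 0 calls at 2 weeks, 0 at 4 weeks and 2 after Cre, so the counts under it say nothing about the members in particular. Then 0 members were called at 2 weeks, at 4 weeks and after Cre, 0 genes of the processing list were called, and Dicer1 differed by -0.76 (limma adjusted p = 0.0732).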

Other observations

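The 19 probe sets that join a microRNA symbol with other symbols cannot be assigned to 1 locus. None was called in any comparison by limma. Of all probe sets 4.69% were called at 2 weeks, 8.21% at 4 weeks, 0.00474% for 4 against 2 weeks and 11.2% after Cre. Unadjusted limma p lay under 0.05 for 2 at 2 weeks, 7 at 4 weeks, 0 for 4 against 2 weeks and 8 after Cre. It did so for 21.5%, 23.3%, 7.69% and 25.6% of all probe sets, in that order. Their log2 differences after Cre ran from -0.43 to 4.67, with a median of 0.07 and an adjusted p of 0.11 for the largest. At 4 weeks they ran from -0.59 to 5.73, with a median of 0.09. The largest member differences were 1.82 after Cre and 2.24 at 4 weeks.

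Among markers of other liver cells, 1 of 6 stellate and fibroblast markers was called after Cre, Pdgfrb (log2 difference 0.31, adjusted p = 0.0265), with a list median of 0.10. Of 4 bile duct markers 1 was called, Sox9 (0.37, adjusted p = 0.0328), with a list median of 0.09. Of 8 endothelial markers none was called after Cre and 1 at 4 weeks, Clec4g (0.60, adjusted p = 0.0478), with a list median of 0.15 at 4 weeks. No marker of macrophages, lymphocytes, erythroid cells or neutrophils was called at 4 weeks or after Cre. Their part in the microRNA results was not tested.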
